A study of Mus musculus with 13 samples.

Results

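The late step of differentiation in female mouse embryonic stem cells (mESCs), from day 5 to day 7, was examined by comparing the 3 RNA-seq libraries of day 7 with the 3 libraries of day 5. Each day had 1 library from each of 3 shRNA vectors, and the libraries of the same vector formed a pair, giving 3 pairs. Of the 25965 genes in the table, 13390 had a mean log2 CPM (reads in a gene scaled to the mapped reads of its library) of at least 0 over these 6 of the 13 libraries and were tested. The comparison was defined by the day and vector of the libraries. Both the comparison and the lists of genes described here were chosen with earlier results of these data known.

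The cells were female FVB/CAST F1 mESCs, from FVB/NJ dams and CAST/EiJ sires, expanded in 2i with LIF and differentiated by weaning into a serum medium (DME HiHi). All cells were transduced with an shRNA retrovirus on day 2, selected with puromycin from day 3, and harvested on day 5 or day 7. The vectors were Nons (a nonsilencing control hairpin) and the hairpins Smarcc1.6 and Smarcc1.7, both against Smarcc1, whose product belongs to the core of the nucleosome remodeller BAF. There was 1 library per vector and day, and 2 of the 3 pairs carry the knockdown throughout. A p-value for the change from day 5 to day 7 takes its error from differences between the vectors in that change. No p-value here measures the spread between repeat cultures.

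Mouse ESCs in 2i with LIF hold a naive pluripotent state, kept by a network of transcription factors such as Esrrb, Klf2 and Zfp42. When the inhibitors are withdrawn that network is switched off and a formative state follows. The study describes the later differentiation in serum as non-directed. In female cells the same days see Xist RNA rise and 1 of the X chromosomes silenced (X chromosome inactivation, XCI).

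Depth was 13993440 to 46420579 mapped reads on day 5 and 29667088 to 58665023 on day 7, with the shallowest library Smarcc1.7 of day 5, and a gene with 3 reads sat at a log2 CPM between -4.29 and -2.22. Between 91.8% and 92.6% of mapped reads fell in genes in the 6 libraries, whereas the day 6 libraries (85.3% to 86.5%) stood apart and were not used. The mitochondrial share of reads was 1.09% to 1.11% on day 5 and 0.524% to 0.717% on day 7, and that of ribosomal protein genes was 5.04% to 5.29% and 6.20% to 6.98%. Both shares therefore moved with day without overlap, and their part in the results was not tested. The log2 CPM of Smarcc1 on day 5 was 8.87, 7.40 and 7.78 (here and throughout in the order Nons, Smarcc1.6, Smarcc1.7), and on day 7 it was 7.89, 7.28 and 7.51. The hairpin libraries were below Nons on both days, but by less on day 7, where Nons itself was lower. Over the 3 pairs Smarcc1 changed by -0.46 ± 0.16 (SE, limma adjusted p = 0.0423), a call that was lost without the Nons pair (adjusted p = 0.159), without the Smarcc1.7 pair (0.0881) and without the vector block (0.280).

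Most of the tested genes differed between day 5 and day 7. At a Benjamini-Hochberg adjusted p of 0.05 in limma, 7659 of 13390 genes were called, of which 4244 were higher on day 7 (31.7% of tested genes) and 3415 lower (25.5%). Of these, 4214 and 3402 had the same sign in all 3 pairs. The counts of every gene list below are to be read against the shares of 31.7% and 25.5%. The rises were also the larger changes, with 2227 rises and 1167 falls of at least 1 log2 unit, and 72 rises and 42 falls of at least 4. Across the tested genes the pair differences had a Pearson r of 0.83 between Nons and Smarcc1.6, 0.84 between Nons and Smarcc1.7 and 0.92 between both hairpins, which describes these libraries, since genes are not replicates. The balance between rises and falls depended on the scaling. The median autosomal log2 CPM rose by 0.195 from day 5 to day 7, and after each library was centred on that median 3276 genes were higher and 4750 lower, so that 40.8% of the calls were rises in place of 55.4%. The median change over all tested genes was 0.06 before centring and -0.13 after it. The typical gene thus fell under centring, and counts after centring are to be read with that in mind. All 3415 lower calls and 3276 of the 4244 higher calls were made under both scalings, and 0 genes were called in opposite directions. By gene type, 4077 of 12531 protein coding genes were higher and 3237 lower, against 87 and 81 of 442 long noncoding genes. Fewer cells of a type and less RNA per cell cannot be told apart in these bulk samples.

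The genes that rose most included those of contractile, matrix and secreted proteins. Smooth muscle actin Acta2 (chromosome 19, 34241090 to 34255336, minus strand) stood at a log2 CPM of -0.45, -0.67 and -1.22 on day 5, and at 6.97, 7.26 and 7.01 on day 7. The days did not overlap, a change of 7.86 ± 0.22 (SE, adjusted p = 4.53e-06). Skeletal actin Acta1 (chromosome 8, 123891767 to 123894736, minus strand) went from -0.01, -2.92 and -1.48 to 5.40, 5.19 and 5.72, a change of 6.91 ± 0.48 (adjusted p = 5.43e-05), and was at 4 reads in its lowest day 5 library. The actin cross-linking protein gene Tagln (chromosome 9, 45929628 to 45936058, minus strand) was already detected on day 5, at 4.85, 1.68 and 2.53, and reached 9.60, 9.91 and 9.86. The hairpin libraries of Tagln were lower than Nons on day 5 and higher on day 7.

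The other rises among the 12 largest ran from 5.25 to 6.89 log2 units, all with the same sign in the 3 pairs. They were Anxa3 (an annexin, 6.87), Sept4 (a septin, 6.57), Prss23 (a serine protease, 6.38), Col1a1 (the alpha 1 chain of type I collagen, 6.14), Cryab (a small heat shock protein, 6.00), Csf1 (the macrophage colony stimulating factor, 5.73), Ltb (lymphotoxin beta, 5.55) and Wisp1 (a matricellular protein, 5.25). 1700019G06Rik rose by 6.89, but it lies on chromosome 7 (89510007 to 89511368, plus strand) inside Prss23 (89507785 to 89517586, minus strand). Whether reads were counted by strand is not given in the sources used here, so reads of this pair cannot be told apart. Csf1 was at 0.30, 0.86 and 0.65 on day 5 and at 6.43, 6.35 and 6.21 on day 7, an even rise across vectors (SD of the pair differences 0.35, n = 3).

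**Figure D1:**
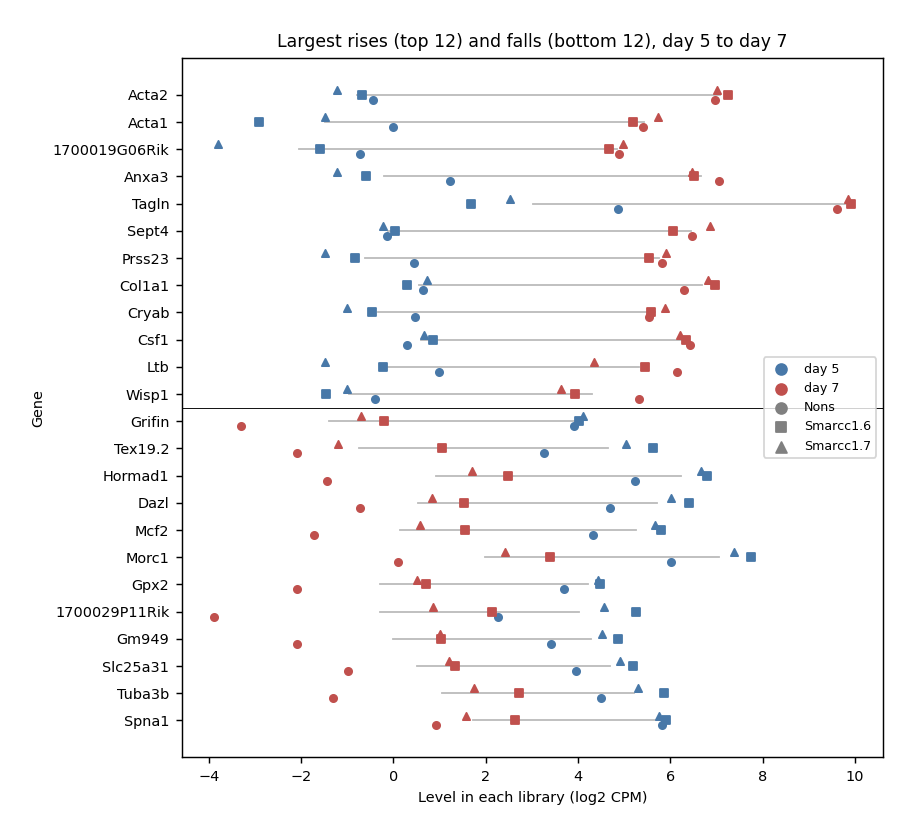
Level (log2 CPM, horizontal axis) of the 12 genes with the largest rises (above the line) and the 12 with the largest falls (below it) in each of the 6 libraries. Blue marks day 5 and red day 7, the symbol gives the vector, and the grey bar joins the day means. In each of the 24 genes the 3 libraries of day 7 lie on one side of the 3 of day 5, as the choice of large changes of equal sign favours. For the falls, Nons on day 7 lies lowest, for example at -3.31 for Grifin.

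Contractile genes rose together. Of 20 genes for actins, myosin and actin-binding proteins 18 were tested, and all 18 rose, also after centring, with a median change of 2.99 against 0.06 over all tested genes. Their summed CPM was 1382, 1557 and 2347 in the day 5 libraries, from lowest to highest, and 9757, 10388 and 10477 in those of day 7. The changes ran from 1.64 for the nonmuscle myosin heavy chain Myh9 to 7.86 for Acta2. Lmod1, which nucleates actin filaments in smooth muscle, rose by 4.20 from -1.01, 0.17 and -2.22 to 2.75, 3.12 and 3.66. The tropomyosin Tpm1, abundant on day 5 at 8.37, 7.02 and 7.27, stood at 11.21, 10.93 and 11.14 on day 7, and the calponin Cnn2 went from 5.29, 4.38 and 4.55 to 8.51, 8.25 and 8.23. On day 5 the hairpin libraries were below Nons for Tpm1 and Cnn2, whereas on day 7 the vectors lay close together for either gene.

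The promoters of contractile genes often carry a CArG box, the motif bound by serum response factor (SRF). In the RefSeq promoter table (GRCm38.p6, the same build as mm10) 17 of the 18 tested genes had an entry, and the 250 bases before the start held a CArG box in 4 of the 17 (23.5%), against 1.62% of all 27025 genes with an entry, searched on both strands. The 4 were Acta1, Vcl, Myl9 and Cnn2, and their sequences are shown, cut before the first annotated exon, with the CArG box in capitals. In Acta1 a TATAAA match is in capitals too, and no CArG box overlaps it. TATAAA was found in 3 of the 17 (17.6%), against 14.3% of all genes. The windows are chr8:123894776-123895025 (minus strand) for Acta1, chr14:20929148-20929397 (plus) for Vcl, chr2:156775214-156775419 (plus) for Myl9 and chr10:79988350-79988583 (plus) for Cnn2.
Acta1: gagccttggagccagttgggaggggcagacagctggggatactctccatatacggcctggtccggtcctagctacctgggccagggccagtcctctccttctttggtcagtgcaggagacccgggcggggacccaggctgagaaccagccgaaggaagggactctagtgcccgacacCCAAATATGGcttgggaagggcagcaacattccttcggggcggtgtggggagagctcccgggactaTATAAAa
Vcl: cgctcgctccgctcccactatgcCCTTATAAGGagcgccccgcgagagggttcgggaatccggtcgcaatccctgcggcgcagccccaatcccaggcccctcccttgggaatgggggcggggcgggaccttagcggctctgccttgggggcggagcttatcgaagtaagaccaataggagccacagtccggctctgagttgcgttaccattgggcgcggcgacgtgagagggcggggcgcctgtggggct
Myl9: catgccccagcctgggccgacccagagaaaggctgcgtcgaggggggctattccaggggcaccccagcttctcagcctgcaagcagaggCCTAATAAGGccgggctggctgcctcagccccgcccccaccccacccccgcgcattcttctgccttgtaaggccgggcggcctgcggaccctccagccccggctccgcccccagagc
Cnn2: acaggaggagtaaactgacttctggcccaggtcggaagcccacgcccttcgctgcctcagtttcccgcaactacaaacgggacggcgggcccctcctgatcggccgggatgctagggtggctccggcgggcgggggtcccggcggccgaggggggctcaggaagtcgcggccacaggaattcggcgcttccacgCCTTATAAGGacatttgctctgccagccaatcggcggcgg
The CArG box starts 73 bases before the RefSeq start of Acta1, 227 before that of Vcl, 161 before that of Myl9 and 56 before that of Cnn2. A match describes the letters only. The 4 genes rose by 6.91 (Acta1), 1.78 (Vcl, the focal adhesion protein vinculin), 2.68 (Myl9, a myosin light chain) and 3.59 (Cnn2), within the range of the list. The window of Acta2, which rose most, held no exact match to either motif. Neither did those of Prss23, Csf1 and Ltb, the other genes with an entry among the 12 largest rises. Only CC, a run of A and T alone, then GG was counted as a CArG box. Stretches with another base inside the run were not counted, and the Acta2 window holds such stretches, ccctatatgg and ccttgtttgg.

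Genes that respond to SRF or to YAP, the effector of the Hippo pathway, rose in 10 of 12 tested cases with 0 falls (9 rises after centring, without Srf), with a median change of 2.27. Ankrd1, a muscle ankyrin repeat protein, changed by 6.05 from -1.45, -2.34 and -3.96 on day 5, the last value standing for 0 reads, to 3.24, 3.32 and 3.85. Thbs1 (thrombospondin 1) rose by 4.35, the receptor kinase gene Axl by 4.03 and Cyr61, a secreted matrix signalling protein, by 3.91, and in each of them the days did not overlap. The gene of SRF itself rose by 0.58 (adjusted p = 0.0301), a call lost without the Smarcc1.6 pair (0.163) or the Smarcc1.7 pair (0.174). Those of its coactivator Mkl1 (0.36, adjusted p = 0.0599) and of the immediate early gene Egr1 (0.08, adjusted p = 0.807) were not called.

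Genes of the extracellular matrix also rose. Of 25 collagen and other matrix genes 20 were tested and 16 rose, with 0 falls and a median change of 2.34. After centring 16 were higher and 1 lower, the proteoglycan gene Dcn (-0.96 before centring, adjusted p = 0.063). Col1a1 was at 0.63, 0.29 and 0.72 on day 5 and at 6.28, 6.96 and 6.81 on day 7. Bgn (biglycan) rose by 4.15, Loxl2, which cross-links collagen, by 3.88, and the basement membrane collagen Col4a2 by 3.64, with its partner Col4a1 at 2.79. The collagen chaperone gene Serpinh1 rose from 5.59, 5.25 and 5.06 to 8.86, 8.41 and 8.46 (3.28 ± 0.09, adjusted p = 4.53e-06). The second chain of type I collagen, Col1a2, differed between vectors on both days, at 0.89, 4.14 and 3.23 on day 5 and 2.36, 5.71 and 6.05 on day 7, with Nons lowest each time. Type III collagen Col3a1, Lox, Postn, Tnc and Lum did not reach the expression filter.

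Keratins of simple epithelia rose together with the contractile genes. Krt8 was at 7.02, 6.05 and 6.11 on day 5 and at 11.07, 10.91 and 10.60 on day 7, and Krt18, its partner in the filament, at 6.34, 5.73 and 5.87 and then 10.38, 10.27 and 10.14. Krt19 rose by 5.20 ± 0.12 (adjusted p = 2.52e-06) and Krt7 by 3.93. Both days were separate in all 4 keratins. The list of trophoblast and simple epithelial genes to which they belong had 10 of 12 members tested, 5 higher and 2 lower, and its summed CPM went from 232 to 349 on day 5 to between 3164 and 4057 on day 7. Those 5 included a member that is not a keratin and is not reported here. The trophoblast factors named next were not called higher. Ascl2 fell by 2.48 and Tfap2c by 0.60, Cdx2 (0.77, adjusted p = 0.0831), Gata3 (0.63, 0.0702) and Tfap2a (-0.09, 0.827) were not called, and Elf5 was below the filter.

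Of 13 genes of the epithelial state 8 rose and 2 fell (8 and 3 after centring), with a median of 0.73. The falls were Grhl2 and Esrp1. Esrp1 lost its call without the Smarcc1.6 pair (limma adjusted p = 0.0746) and without the Smarcc1.7 pair (0.0613). The tight junction genes Cldn7, Cldn6 and Cldn4 rose by 2.52, 1.83 and 1.71, and the membrane protease gene Prss8 by 1.62. E-cadherin, Cdh1, was at 9.01, 9.0 and 8.99 on day 5 and at 9.45, 9.66 and 9.68 on day 7. Grhl2, a transcription factor of epithelial genes, fell by 0.97. Of 12 genes of mesenchymal transition 8 were tested, 3 rose and 1 fell. Tgfb2 rose by 5.06 from -1.29, -1.01 and -1.0 to 4.29, 3.87 and 3.72, the intermediate filament gene Vim by 1.82 and the integrin gene Itgb3 by 1.35, while the repressor gene Zeb1 fell by 2.03. Snai1 (0.49, adjusted p = 0.201), Twist1 (0.81, 0.0523), Zeb2 (0.41, 0.373) and Cdh2 (0.35, 0.523) were not called. Members of both lists therefore rose, with the epithelial cadherin among them.

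The largest falls included germline genes, several of which mESCs transcribe in the naive state. Tex19.2 was at 3.26, 5.63 and 5.05 on day 5 and at -2.08, 1.04 and -1.21 on day 7, a change of -5.39 ± 0.35 (adjusted p = 4.03e-05). Hormad1, a protein of the meiotic chromosome axis, changed by -5.32, from 5.24, 6.80 and 6.65 to -1.43, 2.49 and 1.69. Dazl (chromosome 17, 50279394 to 50293599, minus strand), an RNA-binding protein of germ cells, changed by -5.16 with nearly the same step in each pair (SD 0.26, n = 3). Morc1 (-5.07), a repressor of transposons in the male germline, and Slc25a31 (-4.17), a testis ADP/ATP carrier, were also among the 12. On both days Nons had the lowest level of these 5 genes.

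The list of 14 germline genes, all tested, held 13 falls and 0 rises, also after centring, with a median change of -3.57, and 10 to 13 members were called lower in every setting tried. Its summed CPM was 292 to 736 on day 5 and 29.8 to 90.5 on day 7. The synaptonemal complex gene Sycp3 was the exception, with values of 3.27, 3.91 and 3.67 on day 5 and 1.74, 3.76 and 4.13 on day 7 (-0.41, adjusted p = 0.349). Asz1 fell by 4.33 but had 2 reads in Nons of day 7. Rpl10l and Tuba3a have near-identical copies with which they may share reads, and their falls of 3.81 and 3.37 are uncertain for that reason, as is that of Tuba3b (4.16) among the 12.

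The falls outside this list were of mixed roles. The lens galectin-related gene Grifin changed by -5.41, from 3.90, 4.01 and 4.11 to -3.31, -0.20 and -0.71, with 3 reads in Nons of day 7. The X-linked guanine nucleotide exchange factor Mcf2 changed by -5.12, the glutathione peroxidase Gpx2 by -4.50, the erythroid spectrin gene Spna1 by -4.11, Gm949 by -4.29 and 1700029P11Rik by -4.32, the last with 2 reads in Nons of day 7.

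Of 15 naive pluripotency genes, all tested, 12 fell and 2 rose, and the median change was -1.81. Tbx3 was not called (0.12, adjusted p = 0.835). Nr0b1 fell by 5.08 from 2.18, 3.95 and 3.29 to -5.04, 0.03 and -0.81, where the Nons value stands for 0 reads and so depends on the 0.9 reads written for it. Tcl1, Nr5a2 and Prdm14 fell by 4.04, 3.38 and 3.0. Esrrb went from 5.39, 6.77 and 6.05 to 3.01, 3.88 and 3.46 (-2.62 ± 0.14, adjusted p = 2.39e-05). Nanog went the other way, from 6.80, 7.78 and 7.24 to 7.94, 7.97 and 8.07, a change of 0.72 ± 0.17 (adjusted p = 0.00862), and the days did not overlap. Its call was lost without the Smarcc1.7 pair (0.67, adjusted p = 0.0669). Klf5 rose by 0.48 (adjusted p = 0.0449), a call lost after centring, without the Nons pair (0.203) and without the Smarcc1.7 pair (0.118). Nanog was the most abundant member of the list on both days. The summed CPM of the list was 362 to 915 on day 5 and 377 to 426 on day 7, ranges that overlap.

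The core pluripotency genes split by size of fall. Of 12, 9 fell and 0 rose, with a median of -1.0. Dppa2 fell by 3.33, and Sox2 was at 7.21, 7.59 and 7.45 on day 5 and at 3.69, 4.94 and 4.95 on day 7, a change of -2.89 ± 0.19 (adjusted p = 4.67e-05). Dppa4 and Dppa5a fell by 1.94 and 1.69. Oct4, encoded by Pou5f1, fell by 0.46 only, from 10.12, 10.27 and 10.15 to 9.64, 9.98 and 9.55, so it remained among the abundant transcripts. The RNA-binding protein gene Lin28a fell by 0.54. Tdgf1, a Nodal coreceptor (0.09, adjusted p = 0.593), Lin28b (-0.16, 0.458) and Trim71 (-0.28, 0.0696) were not called, of which Trim71 was called lower after centring.

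The formative and primed genes had 7 falls and 2 rises of 12 (8 and 0 after centring), with a median of -0.73. Lef1 was at 6.22, 6.35 and 6.64 on day 5 and 2.98, 2.93 and 2.95 on day 7, the same level in all vectors on the later day, and fell by 3.45. The de novo methyltransferase genes Dnmt3a and Dnmt3b fell by 2.32 and 1.67 and Fgf15 by 1.73. Otx2 fell by 0.73. The marker Fgf5, at 6.48, 5.74 and 6.10 and then 6.47, 6.59 and 6.70, and Etv4 rose by 0.48 and 0.38, and both calls were lost after centring and without either hairpin pair, and that of Etv4 also without the Nons pair.

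**Figure D2:**
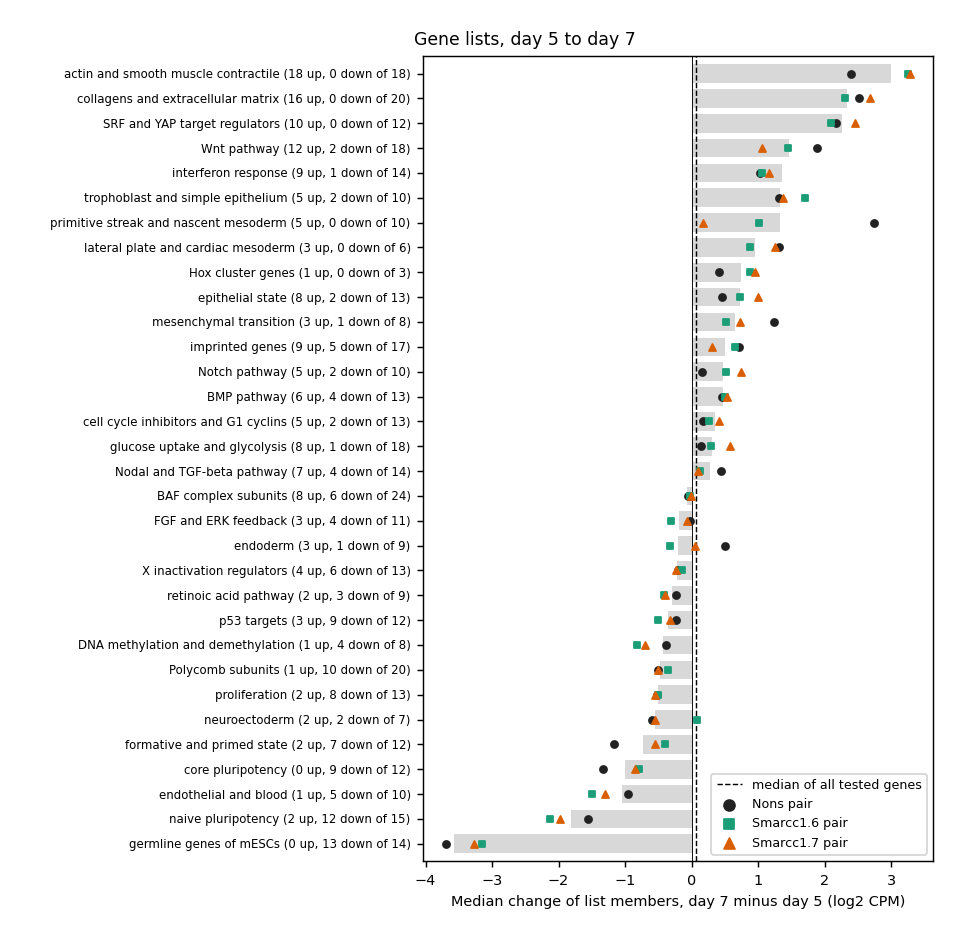
Median change from day 5 to day 7 (log2 CPM, horizontal axis) of the tested members of each of 32 gene lists, with the counts of members called higher and lower. Grey bars give the median of the fitted changes, symbols the median in each of the 3 pairs, and the dashed line the median of all tested genes (0.06). The contractile list (2.99) and the germline list (-3.57) lie at the ends, and primitive streak genes show the widest spread between pairs (2.74, 1.01 and 0.18).

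Among chromatin regulators more genes fell than rose. Of 8 genes of DNA methylation and demethylation 4 fell and 1 rose. Dnmt3l, the cofactor of the de novo enzymes, went from 9.07, 9.72 and 9.49 to 5.21, 7.25 and 7.20, a change of -2.87, with Nons lowest on both days. Tet1 fell by 1.93, Uhrf1, which recruits the maintenance enzyme, by 1.03, and Dnmt1 by 0.65. Of 20 Polycomb genes 10 fell and 1 rose, with a median of -0.48. Phf19, an accessory subunit of Polycomb repressive complex 2 (PRC2), was at 6.41, 6.51 and 6.42 on day 5 and at 2.23, 3.65 and 3.49 on day 7 (-3.32). Bmi1 fell by 2.06, Jarid2 by 1.65 and Suz12 by 1.12, whereas the catalytic subunit gene Ezh2 changed by -0.06 (adjusted p = 0.551) at a log2 CPM between 7.11 and 7.38 in all 6 libraries, and was called lower after centring. Ring1 rose by 0.98.

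The BAF subunits had no common direction. Of 24 tested, 8 rose and 6 fell, close to the 31.7% and 25.5% over all tested genes, with a median of -0.07. Centring turned this to 5 rises and 11 falls, so the direction of the list depended on the scaling. Without the Smarcc1.6 pair 5 rose and 5 fell, and without the Smarcc1.7 pair 4 and 5. Dpf1 fell by 2.55, from 3.81, 4.55 and 4.24 to 0.89, 2.17 and 1.90. The ARID subunits parted, with Arid1a at -0.73 and Arid1b at 0.73 (the latter adjusted p = 0.0532 without the Smarcc1.7 pair). Smarcc2, the paralogue of Smarcc1, rose by 0.42 (adjusted p = 0.0227), which did not pass after centring or without either hairpin pair. The ATPase gene Smarca4 changed by -0.25 (adjusted p = 0.067) and was called lower after centring.

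Several markers of mesoderm rose. Of 13 primitive streak genes 10 were tested, 5 rose and 0 fell (3 and 0 without the vector block). Brachyury, T, went from 2.62, 1.27 and 1.48 to 7.49, 4.19 and 2.04, so that the Smarcc1.7 library of day 7 lay below Nons of day 5. Its change was 2.79 ± 0.68 (adjusted p = 0.0103). Mixl1 changed by 3.46 (adjusted p = 0.0191), with 5.05, 2.31 and -1.14 on day 7, and lost its call without the Smarcc1.6 pair (2.98, 0.0845). Fgf8 rose by 2.65 and Eomes by 1.33, in both cases most in Nons. The summed CPM of the tested and untested members on day 7 was 569 in the highest library and 72.8 in the lowest, against 45.1 to 68.0 on day 5.

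Of 16 genes of lateral plate and cardiac mesoderm 6 were tested, and 3 rose with no falls (5 and 1 without the Nons pair), among them Gata4 (2.63) and Hand1 (1.38). Of 17 endoderm genes 9 were tested, with 3 rises and 1 fall (2 and 3 after centring, 1 and 1 without the Smarcc1.7 pair). Trap1a fell by 2.79. Dab2 rose by 1.49, and Cxcr4 (1.57) and Sox17 (1.40) rose with calls that were lost without the Smarcc1.7 pair, and also after centring and without the Nons pair for Cxcr4 and without the Smarcc1.6 pair for Sox17. Of 15 neuroectoderm genes 7 were tested, 2 rose and 2 fell, near the shares over all tested genes. The intermediate filament gene Nes rose by 2.34 and Tubb3 by 1.42, while Pax6 (-0.34, adjusted p = 0.219) and Sox1 (-1.37, adjusted p = 0.110) were not called.

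Of 10 tested endothelial and blood genes 5 fell and 1 rose, but of the 3 with a mean log2 CPM of 2 or more 1 fell and 1 rose. Pecam1, which mESCs also express, fell by 2.96, and the haematopoietic transcription factor genes Tal1 and Lmo2 fell by 2.57 and 2.16. Flt1, a receptor of VEGF, rose from 3.33, 2.18 and 2.59 to 7.04, 6.16 and 6.40 (3.84 ± 0.13, adjusted p = 6.89e-06). Kdr, the other VEGF receptor, showed 3.80, 0.57 and -0.71 on day 7 and was not called (0.02, adjusted p = 0.975). Only 3 of 39 Hox cluster genes reached the filter.

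The counts of signalling genes are to be read against the 31.7% of all tested genes called higher and the 25.5% called lower, and those of the FGF and retinoic acid lists lie near these shares. In the Wnt pathway 12 of 18 genes rose and 2 fell, with a median of 1.47. Of the 7 with a mean log2 CPM of 2 or more, 2 rose and 2 fell, with a median of 0.09, so most of the rises were in genes below that level. Sp5, a direct transcriptional target of Wnt signalling, changed by 5.09, from 0.37, -0.75 and -3.81, the last from a single read, to 5.11, 3.73 and 2.25. The agonist Rspo3 rose by 3.28 and the antagonists Dkk3 and Dkk1 by 3.26 and 2.82. Axin2, another Wnt target, was not called (0.31, adjusted p = 0.351), with 5.06, 4.08 and 3.59 on day 7, and the receptor gene Fzd7 fell by 0.73.

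In the BMP pathway 6 of 13 tested genes rose and 4 fell (5 and 5 after centring). The antagonist Noggin, Nog, changed by 6.00 ± 0.35 (adjusted p = 2.8e-05), from -2.73, -2.60 and -2.22 on day 5, a level of at most a few reads, to 3.71, 3.13 and 3.61. The target genes Id3, Id4 and Id1 fell by 2.34, 1.91 and 1.72, whereas Bambi was called higher, a call lost without either hairpin pair. The ligand genes Bmp7 and Bmp4 rose by 1.59 and 1.54, the latter with an adjusted p of 0.056 without the Smarcc1.7 pair. In the Nodal and TGF-beta list 7 of 14 rose and 4 fell. The receptor gene Tgfbr2 rose by 3.58 and the ligand gene Tgfb1 by 2.46, and Lefty1, the Nodal antagonist, fell by 1.5. Nodal itself changed by -0.24 (adjusted p = 0.228) and was called lower after centring.

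Of 11 tested FGF genes 4 fell and 3 rose (5 and 2 after centring), with Fgf4 (-2.89), Spry4 (-2.13) and Dusp4 (-1.57) the largest falls and Spred1 (1.02) the largest rise. Of 10 Notch genes 5 rose and 2 fell (3 and 2 after centring, 3 and 1 without the Smarcc1.7 pair), among them the target Hes1 (1.57) and the ligand Dll1 (-2.44). Of 9 retinoic acid genes 2 rose and 3 fell, and Cyp26a1, which degrades retinoic acid, was at 0.19, 1.6 and 1.24 on day 5 and at 6.62, 4.01 and 3.05 on day 7 (3.55 ± 0.79, adjusted p = 0.0069).

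Proliferation genes fell more often than they rose. Of 13 proliferation genes 8 fell and 2 rose, Mki67 by 0.28 and Cdk1 by 0.43, and after centring 10 fell and 0 rose. Mki67 also lost its call without either hairpin pair. Mycn fell by 1.44 and Mybl2 by 1.30, and the replication licensing genes Mcm6, Mcm2, Mcm3 and Mcm5 by 0.63 to 0.97. Of 13 cell cycle inhibitors and G1 cyclins 5 rose and 2 fell (4 and 4 after centring, 6 and 4 without the Nons pair). The inhibitor genes Cdkn1b and Cdkn2b rose by 2.29 and 1.73, and cyclin E1, Ccne1, fell by 1.39, whereas Cdkn1a, a main target of p53, changed by 0.23 (adjusted p = 0.0748). Of 12 genes of the p53 list 9 fell and 3 rose, with 5 falls without the Smarcc1.6 pair and also 5 without the Smarcc1.7 pair, where Pmaip1, Mdm2, Zmat3 and Ccng1 lost their calls. Trp53 fell by 0.98 and Trp53inp1 by 0.97, and Perp and Bbc3 rose by 1.97 and 1.02.

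Glucose transporter genes rose. Slc2a3, a glucose transporter, was at 9.03, 8.94 and 8.95 on day 5 and at 12.22, 11.57 and 12.13 on day 7 (3.0 ± 0.13, adjusted p = 1.43e-05), and Slc2a1 rose by 1.79. Of the 18 genes of the list 8 rose and 1 fell (13 and 1 without the Nons pair), but the abundant enzyme genes Pkm (0.26, adjusted p = 0.125), Aldoa (0.26, 0.124) and Eno1 (0.12, 0.375) were not called. Aldoc, a minor aldolase, rose by 2.93. Of 17 imprinted genes 9 rose and 5 fell (8 and 3 without the Smarcc1.7 pair). Sgce rose by 2.80, Igf2 from 3.91, 4.10 and 3.86 to 6.28, 6.05 and 6.04, and H19, which shares an imprinted domain with Igf2, from 10.53, 10.15 and 9.99 to 12.11, 11.79 and 12.05, while Dlk1 fell by 2.09. Of 14 tested interferon response genes 9 rose and 1 fell. Isg15 rose by 3.15, Ifit1 by 2.87 and the MHC class I light chain B2m by 2.58, with Isg15 at 6.35 in Nons and 4.24 and 3.86 in the hairpins on day 7, whereas Ifitm1 fell by 1.28.

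Xist, the RNA that coats the inactive X, kept rising in the late step (chromosome X, 103460375 to 103483217, minus strand). It stood at 9.05, 7.85 and 8.56 on day 5 and at 10.03, 9.51 and 10.23 on day 7, so the days did not overlap, and the change was 1.44 ± 0.15 (adjusted p = 0.000241). Tsix, its antisense partner, which overlaps it on the plus strand (103431517 to 103484957), was at 5.41, 4.70 and 5.23 and then 6.26, 5.68 and 6.71 (1.10 ± 0.14, adjusted p = 0.000647). As with Prss23, reads of this pair cannot be told apart, and the Tsix values are uncertain. Of 13 tested regulators of XCI, Xist and Tsix included, 4 rose and 6 fell (3 and 7 after centring, 3 and 3 without the Smarcc1.7 pair). Spen, which binds Xist RNA, fell by 1.01, the nuclear matrix protein gene Hnrnpu by 0.96 and Rbm15 by 0.73, Ciz1 rose by 1.17, and Rlim (-0.03, adjusted p = 0.783) and Smchd1 (0.05, 0.662) were not called.

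The X-linked genes as a group moved down relative to the autosomes. The difference between the median log2 CPM of 502 tested genes on the X chromosome and that of 12875 on the autosomes (X minus autosome) was 0.14, 0.31 and 0.31 on day 5, and -0.11, -0.05 and -0.09 on day 7. The sign thus turned in each pair. The change was -0.25, -0.36 and -0.40, a mean of -0.34 ± 0.08 (SD, n = 3 pairs), with an exact permutation p of 0.25 (two-sided), which is the smallest that 8 arrangements allow. On day 4 the values had been 0.44, 0.40 and 0.40. Gene by gene, 23.9% of X-linked genes were called higher on day 7 (120 genes) and 39.6% lower (199 genes), against 32.0% (4124) and 24.9% (3207) of autosomal genes, and the median change was -0.18 on the X chromosome and 0.07 on the autosomes. This is a total over both alleles. It does not say which X chromosome carried the expression.

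**Figure D3:**
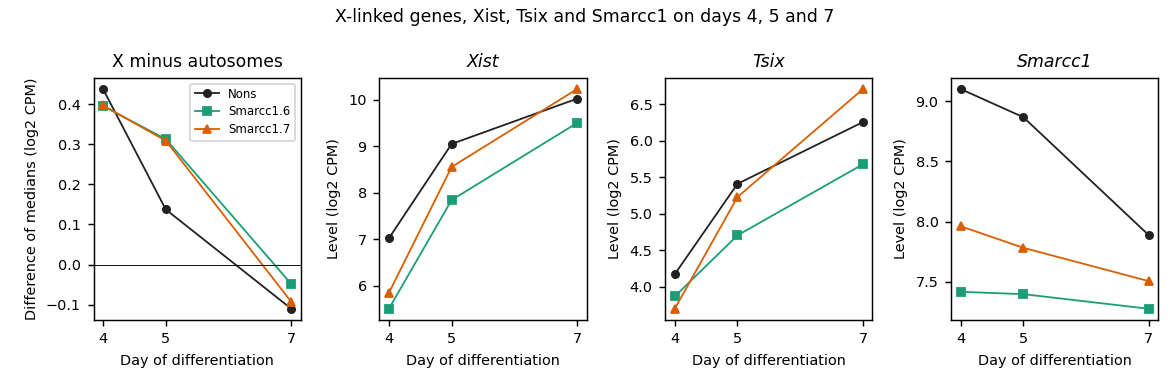
Left panel, the X minus autosome difference of the median log2 CPM in each library on days 4, 5 and 7. The other panels give the log2 CPM of Xist, Tsix and Smarcc1 in the same libraries. Each line joins the libraries of 1 vector, 1 library per point. The X minus autosome difference lies above 0 on day 5 (0.14 to 0.31) and below 0 on day 7 (-0.11 to -0.05) in the 3 vectors.

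Whether the late step differed with knockdown was tested as an interaction, the mean change of both hairpin pairs minus that of the Nons pair. In limma 635 genes passed an adjusted p of 0.05, of which 423 had a value above 0 (3.16% of tested genes) and 212 below 0 (1.58%). This test has 1 Nons pair and 1 residual degree of freedom, the lone Nons pair is assumed to vary like the hairpin pairs, and without the trend on mean expression 0 genes passed (1735 at an unadjusted p under 0.05). A value above 0 means a larger rise or a smaller fall in the hairpin cells. The primitive streak list had 7 of 10 tested genes called below 0 and none called above 0. Lhx1 changed by -5.11, with -0.89, 0.08 and -0.48 on day 5 and 4.76, 0.89 and -0.21 on day 7, so that on day 7 it was high in the Nons library and low in both hairpin libraries. T (-3.13), Mixl1 (-3.63), Gsc (-2.85), Evx1 (-2.45), Pdgfra (-3.04) and Eomes (-1.13) were the other 6. Cyp26a1 (-4.33) and the X-linked Capn6 (-3.95) completed the largest values below 0 over all called genes.

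Among contractile genes 7 of 18 were called above 0 and none called below 0. For Tagln (3.03), Myl9 (2.52), Cnn1 (2.32), Acta1 (2.25), Des (1.76) and Tpm1 (1.05) the hairpin libraries were below Nons on day 5, and the same held for Tpm4 (0.80). On day 7 the hairpins were above Nons for Tagln, Myl9, Cnn1 and Des and below it for Tpm1 and Tpm4, and for Acta1 they lay on either side. The largest values above 0 over all called genes were those of B020004J07Rik (4.90), Zscan4e (4.58) and Gm6189 (4.46), which in Nons of day 7 had 0 to 2 reads. Zscan4e belongs to a cluster of near-identical genes, so its reads are uncertain. Germline genes had 4 of 14 called above 0 and none called below 0, and core pluripotency genes 3 of 12 called above 0 (Sox2, Dppa5a and Utf1). X-linked genes had 25 called above 0 and 19 called below 0 of 502, against 398 and 192 of 12875 autosomal genes. Both shares were thus larger on the X chromosome. The median interaction value was 0.04 on the X chromosome and 0.06 on the autosomes. Whether these differ was not tested.

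**Figure D4:**
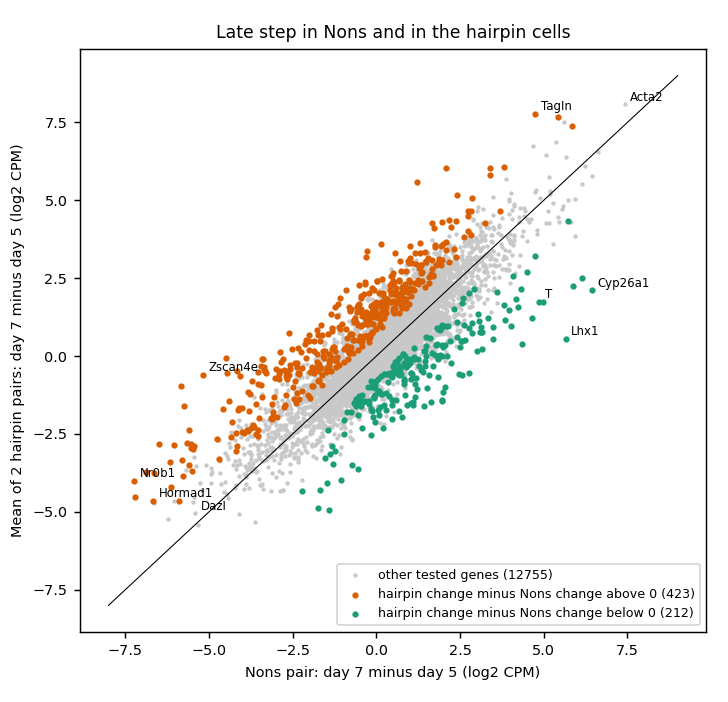
Change from day 5 to day 7 of each tested gene in the Nons pair (horizontal axis, log2 CPM) against the mean change in both hairpin pairs (vertical axis). Orange points are the 423 genes called with an interaction above 0, green points the 212 called below 0, and the line marks equal change. Acta2 lies near the line at the top, Tagln above it, and Lhx1, T and Cyp26a1 below it.

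Whether the pace changed was tested by setting the change per day from day 5 to day 7 against that from day 4 to day 5 in the 9 libraries of days 4, 5 and 7. Both steps share the day 5 libraries. The late change per day was higher for 1263 genes (9.43% of tested genes) and lower for 1334 (9.96%) at a limma adjusted p of 0.05, 2597 in all. The count changed with the libraries left out. Without those of Smarcc1.7 it was 0 (2533 at an unadjusted p under 0.05), without those of Smarcc1.6 587 and without those of Nons 3448. The cause of this was not tested. Of the 2597 genes 661 rose and then fell in all 3 vectors, 715 fell and then rose, 55 rose in both steps and faster in the late one, and 175 rose in both and slower. A further 69 fell in both steps and faster late, and 65 fell in both and slower.

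Counted by the same call, the collagen and matrix list had 11 of 20 members with a higher late pace and none with a lower one. Its median was 1.17 log2 units per day after -0.14. The contractile list had 9 of 18 and none (1.5 after 0.34), and the SRF and YAP list 6 of 12 and none (1.13 after -0.02). Core pluripotency genes had 7 of 12 with a lower late pace (-0.50 after -0.33), whereas naive genes had 1 lower and 2 higher of 15 (-0.91 after -1.36). Epithelial genes had 6 of 13 lower (0.36 after 1.15), and Cldn7 slowed from 3.35 per day. For Xist the pace was 2.36 per day in the early step and 0.72 in the late one, a difference of -1.64 (adjusted p = 0.00747).

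**Figure D5:**
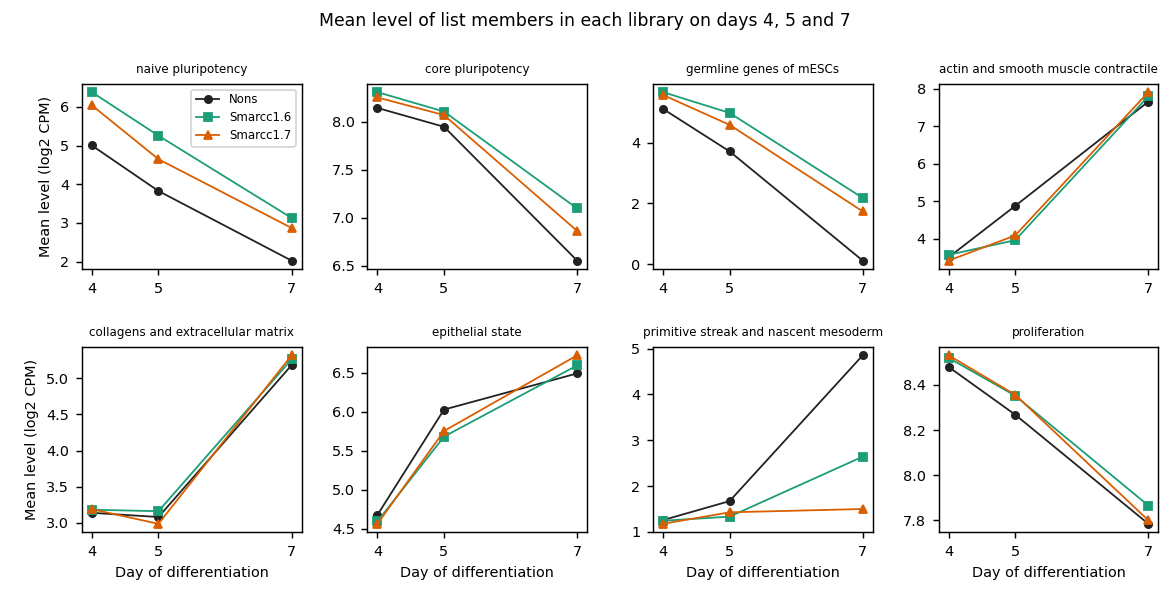
Mean log2 CPM of the tested members of 8 gene lists in each library on days 4, 5 and 7 (horizontal axis, day of differentiation), 1 line per vector and 1 library per point. Collagen and matrix genes were flat from day 4 to day 5 (3.14 and 3.08 in Nons) and rose to 5.18 on day 7, epithelial genes rose in both steps, and primitive streak genes separated by vector on day 7 (4.86, 2.64 and 1.5).

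Some genes turned between the steps. Anxa3 fell from 1.42, 1.14 and 1.54 on day 4 to 1.22, -0.60 and -1.22 on day 5 and reached 7.05, 6.51 and 6.46 on day 7. F5 (coagulation factor V) went from 2.16, 3.03 and 2.53 through 0.51, 0.21 and -0.35 to 5.79, 4.69 and 5.01. Axl, Tgm1 (a transglutaminase) and Emp1 (an epithelial membrane protein) also fell and then rose, and their pace differed by 3.75, 3.61 and 4.39 per day. Those that rose and then fell included Ephx2 (epoxide hydrolase), at 4.72, 4.43 and 4.53, then 4.77, 6.56 and 6.29, then 1.38, 3.50 and 2.62. Slc27a2, a fatty acid transporter, Ap3b2, an adaptor complex subunit, Cpsf4l, Gm13119 and Gm8994 did the same, with differences in pace of -3.02, -2.83, -3.50, -3.71 and -2.86.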

How the data were processed

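RNA-seq was made from total RNA with TruSeq libraries sequenced as paired 75 bp reads, and per the labels the reads were demultiplexed with bcl2fastq and mapped with TopHat2 2.0.12 to mm10, which the study's methods give as masked at the positions where FVB/NJ and CAST/EiJ differ. The authors deposited log2 CPM per gene from Seqmonk. Strand use in counting and the annotation release are not given in the sources used here. The steps of the low values are whole reads (100.0% within a tolerance of 0.02), which gives the mapped reads of each library, and 0 reads are written as 0.9 reads. 58 symbols stand on several rows.

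From these values limma 3.58.1 (R 4.3.3, lmFit and eBayes with trend) was fitted with the vector as a block to genes averaging a log2 CPM of 0 or more over the 6 libraries, with Benjamini-Hochberg adjustment over all tested genes. The labels carry no replicate numbers, so the vector is the pair. Fold changes are on the deposited log2 scale. The interaction, the late against early contrast (days 4, 5 and 7) and an exact permutation test of the X minus autosome median used the same genes. The code was tested on simulated data. Python 3.11.15 with pandas 2.3.3, numpy 2.4.6 and matplotlib 3.10.9 made the summaries.

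The comparison, gene lists and named genes were chosen with earlier results of these data known. The rule named the 12 largest rises and 12 largest falls among called genes of equal sign in the 3 pairs averaging a log2 CPM of 4 or more on the higher day, Smarcc1, Xist and Tsix, up to 4 called members of each list, list members that were not called, the 6 largest turning genes each way and the 3 largest interactions of each sign. Some genes that this rule names are not reported here. Other list members, and the 4 promoters shown, were chosen after their values were seen. Gene types come from GENCODE M21 (98.2% of genes matched). Summed CPM covers all list members in the table.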

Additional observations from a re-analysis of the deposited data

Results flagged for a closer look

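The change from day 5 to day 7 differed between the hairpin pairs and the Nons pair for 423 genes with a value above 0 and 212 below 0, in the limma interaction test described above. All values here are hairpins minus Nons in log2 CPM, at an adjusted p under 0.05, with 1 Nons pair and 2 hairpin pairs, and none passed when the variance was modelled without the trend.

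Among genes that fell, a positive value is a smaller fall in the hairpin cells. Of the largest falls, 1700029P11Rik had 2.75, Grifin 2.70, Tuba3b 2.47, Hormad1 2.04, Gpx2 1.93, Gm949 1.83 and Morc1 1.25. Of genes named from several of the lists, Nr0b1 had 3.22, Pecam1 1.58, Dnmt3l 1.48, Fgf15 1.45, Fgf4 1.42, Phf19 1.29, Sox2 0.95 and Dppa5a 0.94. Gm13119 had 2.66, Gm8994 1.76, Slc27a2 1.16 and Smarcc1 0.78.

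Among genes that rose, Tagln had 3.03, Acta1 2.25, Cyr61 1.77, Anxa3 1.56, Krt7 1.05 and Thbs1 0.97, a larger rise in the hairpin cells. The same sign held for Cldn7 (1.55), Nes (1.55), Cldn6 (1.47), Prss8 (0.88) and Xist (0.69). Dhrs3, Cdk6 and Notch3 had 1.58, 1.15 and 1.10.

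B020004J07Rik (4.90), Zscan4e (4.58) and Gm6189 (4.46) had the largest values of all, with at most 2 reads in the Nons library of day 7. Over the 3 pairs Zscan4e and Gm6189 were not called for day, and Gm6189 did not move the same way in all of them.

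Values below 0 belonged to Lhx1 (-5.11), Cyp26a1 (-4.33), Capn6 (-3.95), Mixl1 (-3.63), Emp1 (-3.63), Dkk1 (-3.24), T (-3.13), Tgfb1 (-2.66), Cxcr4 (-2.37), Ifit1 (-2.17) and Eomes (-1.13). Over the 3 pairs Lhx1 (limma adjusted p = 0.0778) and Capn6 (0.0866) were not called for day.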

How the results depend on the processing

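Of 322 values recomputed under the alternatives, 290 belonged to single genes. Of those 290 values, 286 kept their direction and their side of the threshold, 4 lost their call and 0 reversed. Most of them belong to the 24 largest changes, chosen as already called and of equal sign in the pairs. That choice favours keeping the call, so these values do not speak for other genes. The other values were gene counts and the X minus autosome change, given below. The day 5 to day 7 count of 7659 ranged from 5332 (without the Smarcc1.7 pair) to 8047 (without the Nons pair) when a pair was left out, was 7499 without the vector block and 9214 without the filter on low values. Among the 27 genes recomputed singly (the 24 largest changes, Smarcc1, Xist and Tsix) the vector block changed the call of Smarcc1 alone (-0.46, adjusted p = 0.280 without it in limma). Among list counts, rises of primitive streak genes went from 5 to 3 and of collagen and matrix genes from 16 to 14 without the block. Smarcc1 also lost its call without the trend (0.127). The 635 interaction calls became 0 without the trend. The late against early count of 2597 ranged from 0 (without the Smarcc1.7 libraries) to 3448 (without the Nons libraries). The X minus autosome change was -0.47 without the filter and -0.38 to -0.30 with a pair left out. The causes were not tested. Among the 289 called members of the lists, 7 calls were lost without the Nons pair, 34 without the Smarcc1.6 pair and 48 without the Smarcc1.7 pair. limma voom on recovered reads, chosen after seeing the data, called 7670 genes for day, 688 for the interaction and 2173 for late against early. The planned edgeR and DESeq2 fits were not run, since the deposited values are log2 CPM. Genes at few reads in the shallowest library, Smarcc1.7 of day 5, have the least certain changes.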
